A study of Zea mays with 19 samples.

Results

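The miR319 family was described in embryos of 2 germinating maize inbred lines. Its members were taken by name: every sequence of the deposited miRNA table named miR319 or MIR319, from any species and from either arm of the precursor, with the counts of equal sequences summed. This gave 4 sequences on 10 precursor entries, of 526 sequences on 782 entries in all. Of the 4, 3 passed the low-count filter and were among the 219 sequences tested. The fourth did not pass and is described without a test.

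Small RNA libraries came from embryos dissected from 5 seeds per sample, in 6 groups of 3 biological replicates. The groups of the late germinating line Yu537A were seeds given gibberellin (GA3, 400 mg/L) and taken at 53 h, and untreated seeds taken at 6 h, 53 h and 78 h after imbibition. The early germinating line Yu82 was taken untreated at 6 h and 53 h. Both lines derive from the cultivar population Yuzong5, and each line is 1 genotype, so that line and any other difference between the 2 seed stocks cannot be told apart. The labels mention a GA3 pretreatment of Yu537A seeds without tying it to groups, and the design text names only 1 group as treated, so the remaining Yu537A groups are called untreated here. Since whole embryos were used, fewer cells of a type and less RNA per cell cannot be told apart. A single degradome library, which records the ends left by transcript cleavage, belongs to no group.

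miR319 is an old plant miRNA family whose 3p strand guides cleavage of mRNAs for a subset of TCP transcription factors, which restrain cell proliferation in growing leaves and other organs. The family is closely related to miR159, whose strand guides cleavage of GAMYB transcription factor mRNAs, a branch of gibberellin signalling in the cereal aleurone. In Arabidopsis the long miR319 foldback is cut from the loop towards the base, by successive cuts, so that a further small RNA duplex lies between the loop and the mature strand.

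The 4 sequences are shown because the results turn on which strand of which precursor was counted. They are written as DNA letters, 5′ to 3′, as the deposited table gives them, with the seed (bases 2 to 8) in capitals. The related miR159 strand is given for comparison.
zma-miR319a-3p_R+1: tTGGACTGaagggtgctccct
mtr-miR319a-3p_R+1: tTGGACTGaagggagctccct
zma-MIR319b-p5: aGCTGCCGactcattcaccca
zma-MIR319a-p5: tAGCTGCCgactcatccattca
zma-miR159a-3p: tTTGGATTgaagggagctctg

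The 21 nt strand zma-miR319a-3p_R+1 is common to all 4 maize precursors, MIR319a, MIR319b, MIR319c and MIR319d, so its counts cannot be divided among them, and it is called the 3p strand below. The 21 nt sequence zma-MIR319b-p5 is identical in MIR319b and MIR319d and is called the b/d 5p strand. The 22 nt sequence zma-MIR319a-p5 is identical in MIR319a and MIR319c and is called the a/c 5p strand. The 5p sequences therefore separate the precursors into 2 pairs, which the 3p strand does not. Aligned with a shift of 1 base, the 5p strands match at 18 of 21 positions and differ by T15C, C18T and C19T, counted from the 5′ end of the b/d strand, with its base first. The shift gives them different seeds. The sequence named after Medicago truncatula (mtr) shares the seed of the maize 3p strand and differs from it by T14A alone. Shifted by 1 base, the 3p strand matches zma-miR159a-3p at 16 of 20 positions, with the differences C6T, T14A, C19T and C20G counted on the miR319 strand.

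The deposited hairpins of MIR319b and MIR319a, 1 of each pair, are printed because the place of the 5p strand in them bears on how its counts are read. Capitals mark the 5p strand, which comes first, and the 3p strand.
zma-MIR319b: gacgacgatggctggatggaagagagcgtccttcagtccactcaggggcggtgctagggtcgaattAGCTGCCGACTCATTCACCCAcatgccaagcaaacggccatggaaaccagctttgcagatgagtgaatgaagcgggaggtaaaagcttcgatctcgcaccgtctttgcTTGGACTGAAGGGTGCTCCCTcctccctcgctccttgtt
zma-MIR319a: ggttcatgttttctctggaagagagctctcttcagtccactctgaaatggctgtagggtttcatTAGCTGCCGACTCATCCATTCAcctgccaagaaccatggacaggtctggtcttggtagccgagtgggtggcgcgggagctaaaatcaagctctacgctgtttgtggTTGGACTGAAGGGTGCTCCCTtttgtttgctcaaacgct

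The authors' table places MIR319b on chromosome 3 at 2038966 to 2039178 (plus strand), MIR319a on chromosome 3 at 215788718 to 215788926 (plus strand), MIR319c on chromosome 8 at 152709450 to 152709665 (minus strand) and MIR319d on chromosome 8 at 27608235 to 27608458 (minus strand). The genome build of these intervals was not given in the sources at hand, and their gene context was not looked up. MIR319a and MIR319c were 90.3% identical over their aligned hairpins, and MIR319b and MIR319d 87.3%. Identity between a member of one pair and a member of the other was 65.4% to 67.5%. The stretch of the MIR319b hairpin most complementary to the 3p strand lay at bases 21 to 41, with 17 Watson-Crick and 2 G-U pairs over 21 positions, whereas the b/d 5p strand lay at bases 67 to 87. The stretch most complementary to that 5p strand was at bases 126 to 146, between it and the 3p strand at 175 to 195. MIR319a had the same layout, with the complement of the 3p strand at bases 20 to 40, the a/c 5p strand at 65 to 86 and the complement of that 5p strand at 124 to 145. By sequence, then, the counted 5p strands do not face the 3p strand, and the share of 5p counts described here is not a share of the strand opposite to it.

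The depth of the libraries, as the sum of miRNA counts, was highest in replicate 1 of the late line at 53 h (818241) and lowest in replicate 3 of the early line at 53 h (42804). Of the late-line libraries, replicates 1 and 3 at 6 h and replicate 3 at 53 h listed the fewest sequences, 113, 124 and 108, against up to 377 elsewhere. Scaling factors also moved with the line: the TMM factors ran from 0.602 to 1.06 in the late line and from 1.06 to 2.08 in the early line. Without them the median log2 difference of all tested sequences between the late and the early line shifted to -1.03 from -0.36 at 6 h and to -0.78 from 0.01 at 53 h. Levels between the lines therefore depend on scaling, and shares within a library do not. The embryo has no marker miRNA fixed here. The families miR2118 and miR2275, known from reproductive organs, and the family miR482 were taken as markers of other tissue. Of their 5 sequences, 4 of miR2118 and 1 of miR482, zma-miR2118b was listed at 0 in every untreated late library. miR2275 had 0 sequences. The part of scaling and of other tissue in the results was not tested.

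The 3p strand was the dominant miR319 sequence and showed no difference past the test in any of the 9 comparisons made. It summed to 247809 counts over the 18 libraries, averaged 53509 CPM, a level per scaled library total (TMM scaling in edgeR), and ranked 4 among all sequences by mean level. In the late line given GA3, its level was 49275, 59597 and 70157 CPM. Untreated late-line libraries held 66748, 70900 and 34392 CPM at 6 h, 68892, 50089 and 45188 CPM at 53 h, and 77120, 57778 and 44676 CPM at 78 h. Early-line libraries held 48642, 45201 and 65781 CPM at 6 h and 37238, 46945 and 24549 CPM at 53 h. Libraries of a group spread widely, and all groups overlapped with each other, except that every GA3 library lay above every early-line library at 53 h. In that comparison 37.4% of all tested sequences did not overlap.

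Group means of the 3p strand were 59676 ± 10440 CPM in GA3-treated late embryos, then 57347 ± 19990 (6 h), 54723 ± 12510 (53 h) and 59858 ± 16320 (78 h) CPM in untreated late embryos, and 53208 ± 11020 (6 h) and 36244 ± 11230 (53 h) CPM in early embryos (SD, n = 3 each). Its log2 fold change over the 9 comparisons ran from -0.55 (SE 0.36, early line, 53 h over 6 h) to 0.72 (SE 0.36, late line at 78 h over early line at 53 h). The lowest adjusted p was 0.167 in edgeR's quasi-likelihood test with Benjamini-Hochberg adjustment over 219 sequences. The sign of the difference between the late and the early line was positive with TMM scaling, 0.11 at 6 h and 0.59 at 53 h, and negative with library totals alone, -0.54 at 6 h and -0.31 at 53 h, with no call in either. The order of the 5 other groups is thus within their spread, and the early line at 53 h had the lowest mean.

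**Figure D1:**
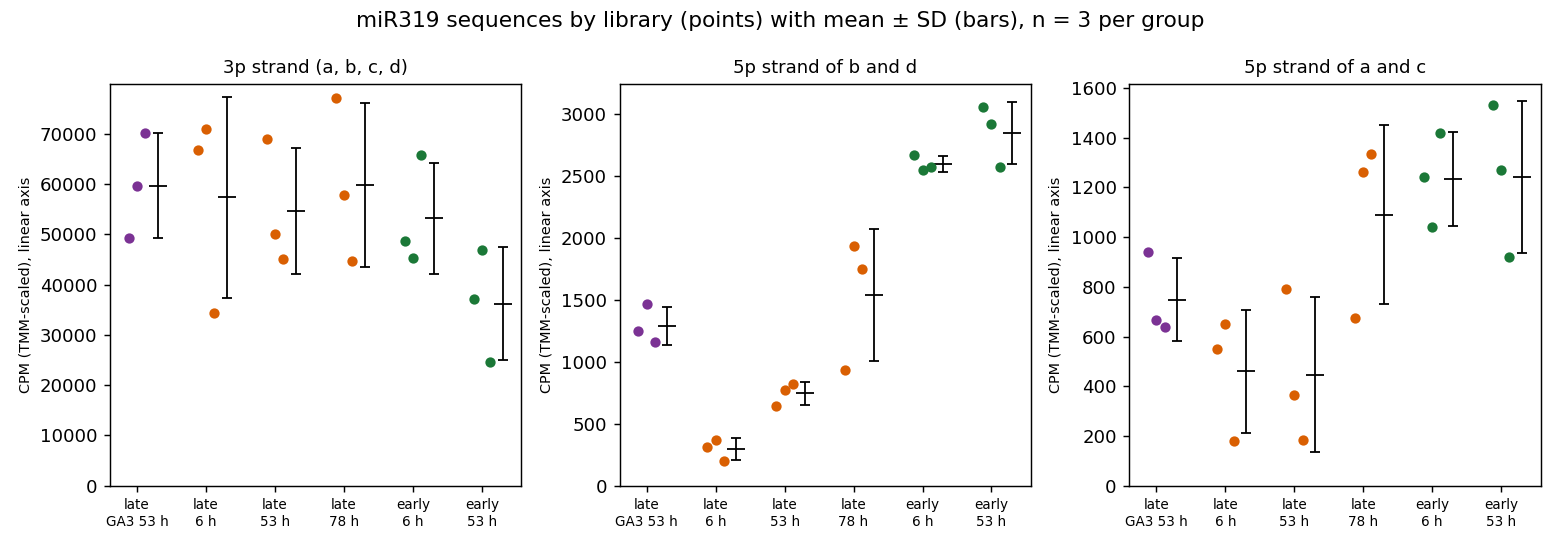
Level of the 3 tested miR319 sequences, in CPM on linear axes, with 1 point per library and the mean ± SD of 3 libraries beside the points, for GA3-treated late embryos (purple), untreated late embryos (orange) and early embryos (green). The b/d 5p strand lies between 2553 and 3060 CPM in the early line and at 1936 CPM or less in every late-line library, while the 3p strand overlaps between the lines.

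The 5p strand of MIR319b and MIR319d was lower in the late line than in the early line at both shared times. At 6 h it fell 8.73-fold, and at 53 h 3.82-fold. Its counts were 28, 127 and 27 in the late-line libraries at 6 h, which are few, against 653, 597 and 561 in the early-line libraries. In CPM, the late line held 314, 373 and 203 at 6 h, against 2675, 2553 and 2575 in the early line. All 3 late libraries lay far below all 3 early libraries. The log2 fold change was -3.13 (SE 0.37, adjusted p = 4.51e-05, edgeR with Benjamini-Hochberg adjustment), with a mean of 297 ± 86.5 CPM for the late line, against 2601 ± 65.2 CPM for the early line (SD, n = 3 each).

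At 53 h the b/d 5p strand held 644, 777 and 825 CPM in the late line, against 3060, 2925 and 2575 CPM in the early line. Again the groups did not overlap. The log2 fold change was -1.93 (SE 0.35, adjusted p = 0.0018, edgeR with Benjamini-Hochberg adjustment), with a mean of 748 ± 93.7 CPM for the late line, against 2853 ± 250.1 CPM for the early line (SD, n = 3 each). Of the 3 tested members, 1 passed the test at 6 h and 1 at 53 h, the b/d 5p strand each time and lower each time. Over all tested sequences, 7.31% were called at 6 h and 10.5% at 53 h, and 4.57% and 4.11% were called lower. The summed level of the markers of other tissue was also lower in late embryos. At 6 h it was 0.0 to 278 CPM, against 287 to 496 CPM in early embryos. At 53 h it was 144 to 251 CPM, against 663 to 1140 CPM in early embryos. Late-line sums at 78 h were 68.4 to 627 CPM, where miR2118 alone held 68.4 to 235 CPM and miR482 0.0 to 392 CPM. Not every marker followed the sum. Means of osa-MIR2118e-p3_2ss13TA19CT at 6 h were 162 ± 144 CPM (late) and 211 ± 105 CPM (early), within the spread. Its means at 53 h were 148 ± 8.11 CPM (late) and 614 ± 197 CPM (early). The miR482 sequence was listed at 0 in all libraries of 6 h. zma-miR2118b, listed at 0 in the late line at both times, averaged 155 ± 35.2 CPM in the early line at 6 h and 271 ± 9.38 CPM at 53 h (SD, n = 3 each). The part of these markers in the difference of the b/d strand was not tested.

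The 5p strand of MIR319a and MIR319c had late-line values below the early-line ones at both times, without passing the test. At 6 h its level was 550, 651 and 180 CPM in the late line, against 1241, 1039 and 1418 CPM in the early line. At 53 h it was 792, 364 and 186 CPM in the late line, against 1532, 1268 and 922 CPM in the early line. The groups overlapped at neither time, as was the case for 27.9% of all tested sequences at 6 h and 36.1% at 53 h. The log2 fold change was -1.42 (SE 0.54) at 6 h and -1.46 (SE 0.54) at 53 h, with adjusted p of 0.114 and 0.0769 in edgeR with Benjamini-Hochberg adjustment. DESeq2 called both, with adjusted p of 0.025 at 6 h and 0.00561 at 53 h, where it called 12.8% and 22.8% of all tested sequences. Leaving out late-line replicate 1 at 53 h gave -2.10 with an adjusted p of 0.0396 at that time.

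Summed over both 5p strands, the difference between the lines was clear at both times and the total of the family was not. The 5p sum had a log2 fold change of -2.58 (SE 0.42, adjusted p = 3.0e-04) at 6 h and of -2.15 (SE 0.42, adjusted p = 0.00139) at 53 h, late over early, in edgeR with Benjamini-Hochberg adjustment over 68 sums of a family's arm. Of these sums, 10.3% were called at 6 h and 26.5% at 53 h. The sum of the whole family, which the 3p strand fills almost entirely, changed by -0.03 (SE 0.28, adjusted p = 0.981) and by 0.17 (SE 0.28, adjusted p = 0.653) in the same test over 48 families. Family sums were called in 6.25% of families at 6 h and in 16.7% at 53 h. TMM factors were computed separately for sequences, arm sums and family sums. Values of a sum and of its strands are therefore not on the same scale, here and below. On the scale of sequences the 3p strand alone changed by 0.11 at 6 h and by 0.59 at 53 h. In none of the 9 comparisons did the miR319 sum pass, with log2 fold changes from -0.19 (early line, 53 h over 6 h) to 0.42 (late line at 78 h over early line at 53 h, adjusted p = 0.282), beside 10.4% of families called for that last pair, 8.33% for GA3-treated late over early embryos, 8.33% for the late line at 78 h over 6 h, 2.08% at 53 h over 6 h and 0.0% in the others.

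**Figure D2:**
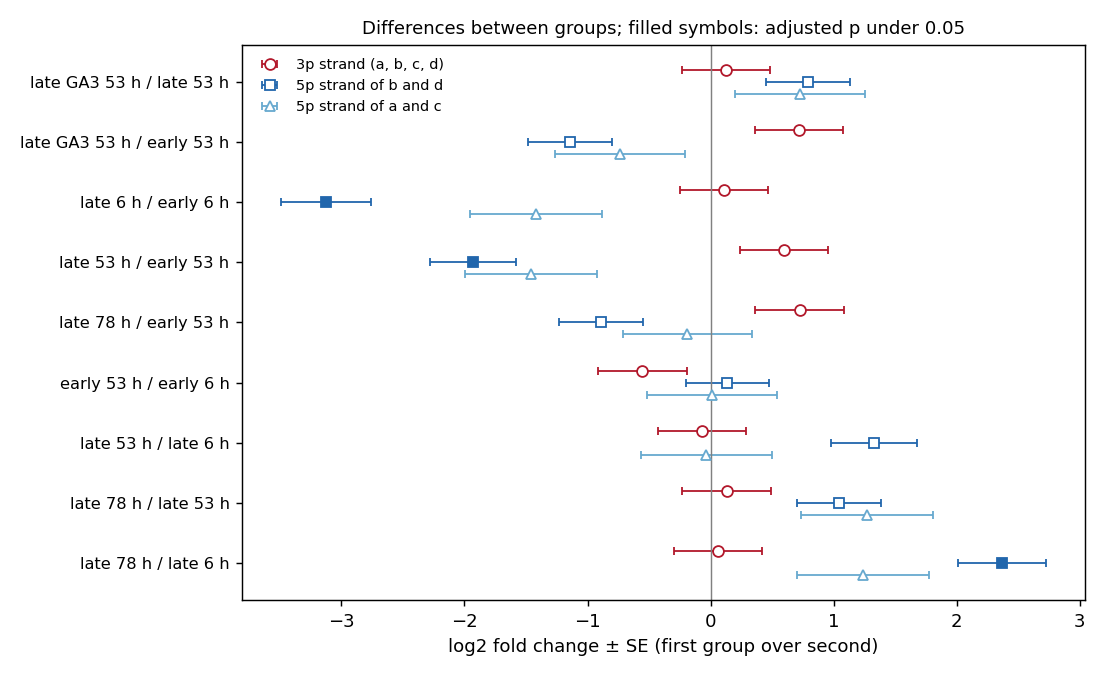
Log2 fold change ± SE of the 3 tested miR319 sequences in 9 comparisons, first named group over the second, with filled symbols where the adjusted p is under 0.05. The filled symbols are the b/d 5p strand in the late over the early line at 6 h (-3.13) and 53 h (-1.93) and in the late line at 78 h over 6 h (2.37).

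The 5p share of all miR319 counts, which needs no scaling between libraries, separated the lines without overlap at 6 h and at 53 h. At 6 h the share was 1.28%, 1.42% and 1.10% in the late line, against 7.45%, 7.36% and 5.72% in the early line. At 53 h it was 2.04%, 2.23% and 2.19% in the late line, against 10.98%, 8.20% and 12.47% in the early line. Every untreated late library at these times lay below every early library. At these times no untreated late-line 95% Wilson interval reached above 2.66%, and no early-line one below 5.37%. These intervals take each read as an independent count, so copies of the same molecule would make them too narrow. They also leave out the spread between libraries.

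Mean 5p shares were 1.27 ± 0.162% in the late line and 6.84 ± 0.971% in the early line at 6 h, and 2.15 ± 0.0975% in the late line and 10.55 ± 2.17% in the early line at 53 h (SD, n = 3 each). A two-sided exact permutation test of 3 against 3 libraries gave p = 0.1 at each time, the smallest it allows, and 0.12 after Benjamini-Hochberg adjustment over 6 comparisons. With the line permuted within both times together, the mean difference of -6.99 percentage points had an exact p of 0.005, the smallest of 400 arrangements, in a test chosen after the values were seen. It was lower in 6 of 6 late libraries. Each pair of precursors contributed: the b/d strand made up 0.522 ± 0.0588% of miR319 counts in the late line and 4.67 ± 0.851% in the early line at 6 h, and the a/c strand 0.746 ± 0.203% in the late line and 2.17 ± 0.168% in the early line (SD, n = 3 each).

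**Figure D3:**
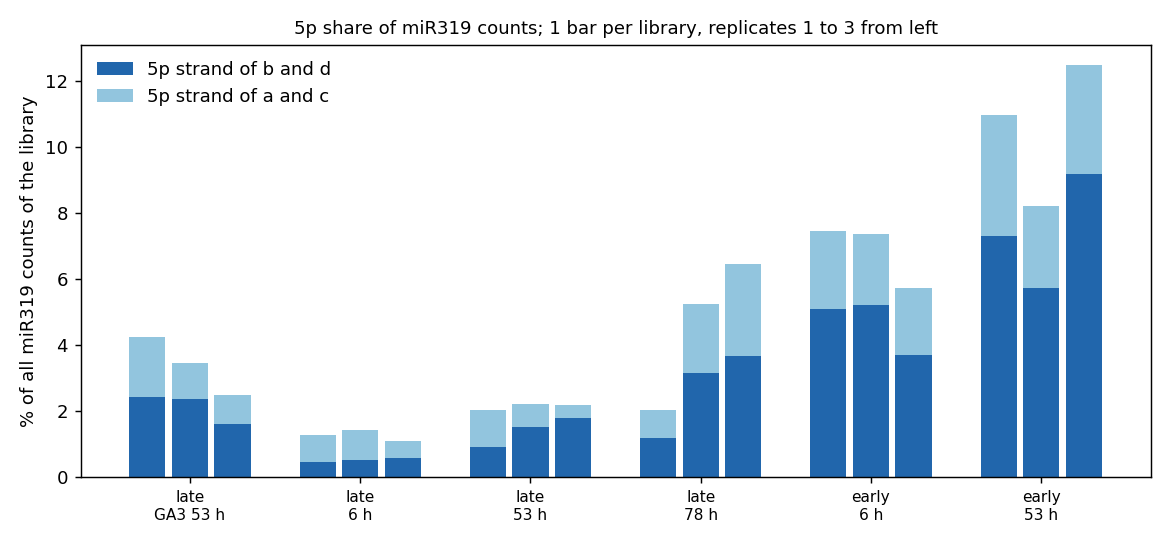
Share of each library's miR319 counts that fell on a 5p strand, in percent, with 1 bar per library and the b/d strand below the a/c strand. Untreated late libraries stand between 1.10% and 2.23% at 6 h and 53 h, and between 2.05% and 6.46% at 78 h. The GA3 libraries stand between 2.50% and 4.25%, and the early libraries between 5.72% and 12.47%.

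A lower minor arm in the late line was not particular to miR319. Of 21 families with counts on both arms, the mean share of the arm with fewer counts was lower in the late line for 14 at 6 h and for 13 at 53 h, and was lower without overlap of the libraries for 8 at each time. miR166, miR167 and miR169 were among these 8 at both times, beside miR319. The opposite, a higher share without overlap, was seen in 3 families at each time, with miR408 and miR5083 at both. The minor arm of miR319 is made of 5p strands that do not face the 3p strand, and the layout of the other families was not examined. The shares may thus be of unlike kinds. Some were near 0: at 6 h miR166 had 0.0065% (late) and 0.021% (early), and miR408 0.17% (late) and 0.0% (early). No test of miR319 against the other families was made.

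**Figure D4:**
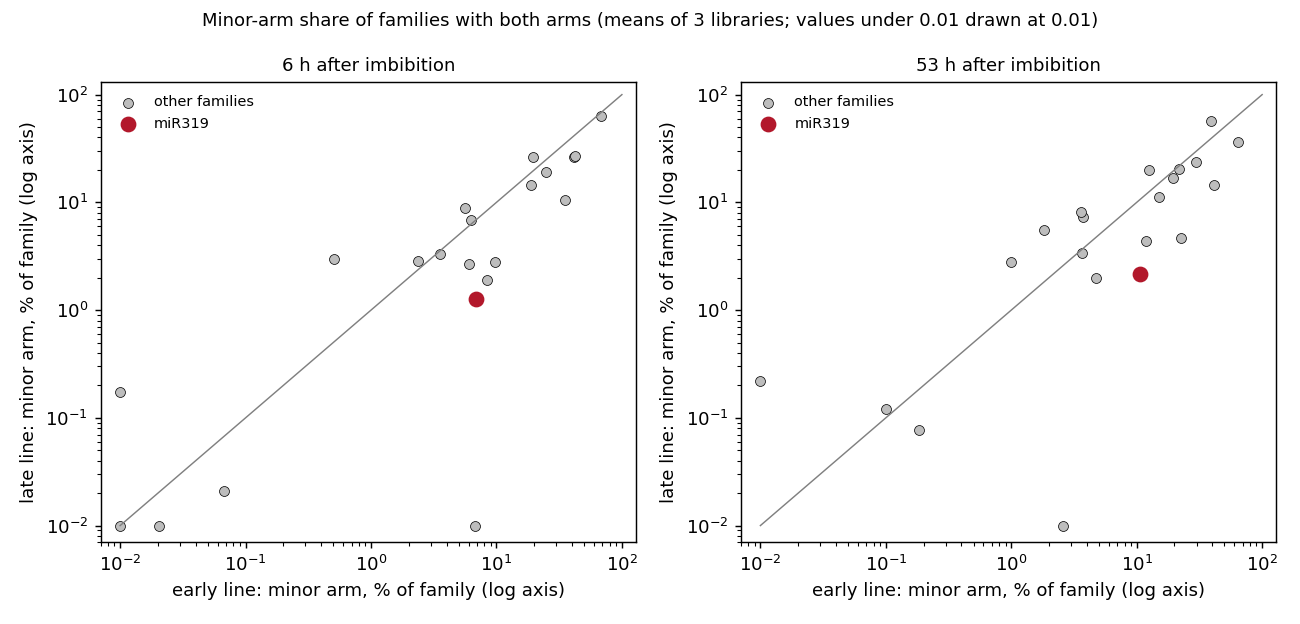
Share of a family's counts on its minor arm in the late line (vertical) against the early line (horizontal), as means of 3 libraries in percent on log axes, at 6 h and at 53 h, for 21 families, with values under 0.01% drawn at 0.01%. miR319 (red) lies below the line of equality at both times, at 1.27% in the late and 6.84% in the early line at 6 h and at 2.15% in the late and 10.55% in the early line at 53 h, and other families lie below it too.

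The balance between the precursor pairs did not differ past the test between the lines, although the libraries did not overlap at 6 h. The b/d strand made up 36.4%, 36.4% and 52.9% of the 5p counts in the late line at 6 h, against 68.3%, 71.1% and 64.5% in the early line, with no overlap (exact permutation test, two-sided, p = 0.1, adjusted 0.6 over 6 comparisons). At 6 h the a/c strand had more counts than the b/d strand in 2 of the 3 late libraries and in 0 of the 3 early ones. At 53 h the late line ran from 44.9% to 81.6% and the early line from 66.6% to 73.6%, and the groups overlapped. With the line permuted within both times the mean difference was -15.6 percentage points with an exact p of 0.055.

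Over the course of imbibition the b/d 5p strand rose in the late line and stayed level, within the spread, in the early line. In the late line its mean was 297 ± 86.5 CPM at 6 h, 748 ± 93.7 CPM at 53 h and 1540 ± 533 CPM at 78 h (SD, n = 3 each). At 78 h the libraries held 934, 1936 and 1751 CPM, so that replicate 1 stood apart from the others and still lay above every library of 53 h. The step between 78 h and 6 h was 5.17-fold, with a log2 fold change of 2.37 (SE 0.36, adjusted p = 5.21e-04, edgeR with Benjamini-Hochberg adjustment). This was the 1 call among the 3 members in that comparison, where 5.94% of all tested sequences were called and 5.48% were called higher. Without the 3 late-line libraries that listed the fewest sequences the value was 2.25 with an adjusted p of 0.155, and in a model of the compared groups alone it was 2.02 with an adjusted p of 0.122.

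The single steps of the late line did not pass the test. At 53 h over 6 h the log2 fold change of the b/d strand was 1.33 (SE 0.35, adjusted p = 0.0527) and at 78 h over 53 h it was 1.04 (SE 0.34, adjusted p = 0.281), both in edgeR with Benjamini-Hochberg adjustment and both without overlap of the libraries. The first step passed in DESeq2 (adjusted p = 0.0246, with 2.74% of all tested sequences called) and without late-line replicate 1 at 53 h (1.80, adjusted p = 0.0393). Non-overlapping libraries were seen for 7.31% of tested sequences in the first step and for 11.4% in the second. None of the 3 members was called in either step by edgeR, which called 1.83% and 0.0% of all tested sequences. An unadjusted p under 0.05 was found for 1 member in the first step and 2 in the second. Over all tested sequences it was found for 9.13% in the first step and 7.76% in the second. DESeq2 called 1 member in the first step and 0 in the second, and limma voom called 0 in both. Over all tested sequences, DESeq2 called 2.74% and 0.0%, and limma voom 2.28% and 0.457%. The 5p sum changed by 0.75 (SE 0.40, adjusted p = 0.466) in the first step and by 1.14 (SE 0.40, adjusted p = 0.253) in the second, by the same edgeR test over arm sums, with 4.41% and 0.0% of them called.

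The a/c 5p strand had no ordered course in the late line, with means of 461 ± 248 CPM at 6 h, 447 ± 312 CPM at 53 h and 1090 ± 361 CPM at 78 h (SD, n = 3 each). Its libraries at 78 h were 676, 1260 and 1335 CPM. The lowest of these lay within the range of 53 h and above that of 6 h. Its log2 fold change at 78 h over 6 h was 1.24 (SE 0.54, adjusted p = 0.250, edgeR with Benjamini-Hochberg adjustment). For the 5p sum this comparison gave 1.89 (SE 0.41, adjusted p = 0.00788, edgeR with Benjamini-Hochberg adjustment), with 8.82% of arm sums called. That call rested on single libraries: the adjusted p was 0.0743 without late-line replicate 3 at 6 h (log2 fold change 1.16) and 0.10 without late-line replicate 3 at 78 h (1.25).

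In the early line the b/d strand averaged 2853 ± 250.1 CPM at 53 h and 2601 ± 65.2 CPM at 6 h, and the a/c strand 1241 ± 306 CPM at 53 h and 1233 ± 190 CPM at 6 h (SD, n = 3 each). Their log2 fold changes were 0.13 (SE 0.34) and 0.01 (SE 0.52), with adjusted p of 0.947 and 1.0 in edgeR with Benjamini-Hochberg adjustment. edgeR, DESeq2 and limma voom each called 0 of the 3 members, while they called 1.83%, 5.48% and 11.9% of all tested sequences. In edgeR an unadjusted p under 0.05 was found for 0 of the 3 members and for 14.6% of all tested sequences. The 5p sum changed by 0.32 (SE 0.40, adjusted p = 0.694, edgeR with Benjamini-Hochberg adjustment), with 2.94% of arm sums called. In both lines the 5p share of every library at 53 h was above that of every library at 6 h, by 3.71 percentage points in the mean in the early line and by 0.884 in the late line (exact permutation tests, two-sided, p = 0.1 each, the smallest possible, adjusted 0.12 over 6 comparisons). A higher minor-arm share without overlap was found for 7 of the 21 families in the early line and for 3 in the late line, miR319 included in both. Whether the lines differed in the change from 6 h to 53 h was tested as an interaction, which for the b/d strand was 1.19 (SE 0.48, adjusted p = 0.576, edgeR with Benjamini-Hochberg adjustment). An unadjusted p under 0.05 was found for 1 of the 3 members and for 7.76% of all tested sequences. Neither edgeR nor DESeq2 nor limma voom called a member, and each called 0.0% of all tested sequences.

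At 78 h the late line had 5p levels nearer to those of the early line at 53 h. The b/d strand held 934, 1936 and 1751 CPM in the late line at 78 h, against 3060, 2925 and 2575 CPM in the early line at 53 h. These groups still did not overlap, as for 28.8% of tested sequences. The log2 fold change was -0.89 (SE 0.34, adjusted p = 0.107, edgeR with Benjamini-Hochberg adjustment), and the a/c strand differed by -0.19 (SE 0.53, adjusted p = 0.843). Of the 3 members edgeR called 0, and of all tested sequences 8.68%. An unadjusted p under 0.05 was found for 1 of the 3 and for 31.1% of all tested sequences. DESeq2 and limma voom also called 0 of the 3 members, and 14.2% and 17.4% of all tested sequences. The 5p sum differed by -1.01 (SE 0.40, adjusted p = 0.0861, edgeR with Benjamini-Hochberg adjustment), with 11.8% of arm sums called, and passed in DESeq2 (adjusted p = 0.0142). The 5p share at 78 h was 2.05%, 5.24% and 6.46%. Replicate 1 lay in the range of the late line at 53 h, and the other replicates in the range between that and the early line at 53 h. Replicate 3, at 6.46%, lay above replicate 3 of the early line at 6 h (5.72%).

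GA3 treatment of the late line was not followed by a miR319 change that passed the test. The b/d 5p strand held 1249, 1465 and 1162 CPM in GA3-treated embryos at 53 h, against 644, 777 and 825 CPM in untreated late embryos of the same time. All 3 treated libraries were above all 3 untreated ones, and 11.0% of tested sequences did not overlap in this comparison. The log2 fold change was 0.79 (SE 0.34, unadjusted p = 0.0334, adjusted p = 0.908, edgeR with Benjamini-Hochberg adjustment), with a mean of 1292 ± 156 CPM for treated embryos, against 748 ± 93.7 CPM for untreated ones (SD, n = 3 each). For the a/c strand, GA3-treated embryos held 940, 666 and 637 CPM, against 792, 364 and 186 CPM in untreated ones, with overlap. Its log2 fold change was 0.73 (SE 0.53, adjusted p = 1.0), and that of the 3p strand 0.12 (SE 0.36, adjusted p = 1.0). Of the 3 members 0 were called by edgeR, DESeq2 or limma voom, 1 had an unadjusted p under 0.05 in edgeR, and 0.0% of all tested sequences were called, with 11 at an unadjusted p under 0.05.

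The 5p share was 4.25%, 3.45% and 2.50% with GA3, against 2.04%, 2.23% and 2.19% without it at 53 h. The treated libraries were all higher, by 1.25 percentage points in the mean, and the lowest of them lay close to the untreated range. The exact permutation test, two-sided, gave p = 0.1, the smallest possible for 3 against 3, and 0.12 after Benjamini-Hochberg adjustment over 6 comparisons. Of the 21 families with both arms, 3 had a higher minor-arm share without overlap after GA3, which were miR156, miR168 and miR319, and 1 a lower one.

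The 5p sum of GA3-treated late embryos was lower than that of early embryos of the same time. The b/d strand averaged 1292 ± 156 CPM in GA3-treated late embryos and 2853 ± 250.1 CPM in early embryos at 53 h (SD, n = 3 each), without overlap, as for 37.4% of tested sequences. Its log2 fold change was -1.14 (SE 0.34, adjusted p = 0.0513, edgeR with Benjamini-Hochberg adjustment), and DESeq2 and limma voom called it (adjusted p of 0.00709 and 0.0368), where they called 14.6% and 21.9% of all tested sequences. edgeR thus called 0 of the 3 members, and 6.85% of all tested sequences. An unadjusted p under 0.05 was found for 1 of the 3 and for 29.7% of all tested sequences. The 5p sum changed by -1.40 (SE 0.41, adjusted p = 0.032, edgeR with Benjamini-Hochberg adjustment), with 13.2% of arm sums called. TMM factors were computed anew for the arm sums. The value of -1.40 is therefore not on the scale of the single strands, which differed by -1.14 (b/d) and -0.73 (a/c). The call of the 5p sum was lost without any 1 of 5 of the 6 libraries, all but GA3 replicate 1, with adjusted p from 0.0897 to 0.239. This comparison, the comparison of GA3 with untreated late embryos and that of untreated late with early embryos at 53 h share libraries, so they are not independent of each other.

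The Medicago-named 3p sequence was listed in 2 libraries. It had 10 counts in GA3-treated late embryos (replicate 2, 21.4 CPM) and 8 counts in early embryos at 6 h (replicate 1, 32.8 CPM), and was listed at 0 elsewhere. In most libraries the smallest listed value was 4 counts, so a value of 0 does not show that the sequence was absent. At this depth its groups cannot be compared.

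miR319 as a whole held from 2.925% (late line at 6 h, replicate 3) to 7.41% (early line at 6 h, replicate 3) of a library's miRNA counts. The mean was 5.54 ± 1.16% of all counts over the 18 libraries (SD, n = 18). At 6 h the share was 4.53 ± 1.43% in the late line and 6.97 ± 0.556% in the early line, and at 53 h 4.69 ± 0.544% in the late line and 6.34 ± 0.557% in the early line (SD, n = 3 each). The lines did not overlap at either time (exact permutation test, two-sided, p = 0.1, the smallest possible, adjusted 0.3 over 6 comparisons). Without the miR166 counts, which fill much of every library, in the denominator, the shares at 6 h became 11.07 ± 5.34% in the late line and 17.55 ± 1.32% in the early line (SD, n = 3 each), and the lines overlapped.

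Over the 18 libraries the 5p strands were more like each other than like the 3p strand. The Pearson correlation of log2 CPM between the b/d and a/c strands was 0.765, that of the b/d strand with the 3p strand -0.271, and that of the a/c strand with the 3p strand 0.0527. These are descriptions over 18 libraries that share scaling and fall into 2 lines. Outside the family, the sequences most like the 3p strand were zma-miR827-5p_L+1 (r = 0.892), zma-miR166a-3p (0.857), osa-miR444b.1_L+1 (0.852), osa-miR166a-3p_1ss21CT (0.851) and zma-miR169o-5p_R-1 (0.833). Those most like the b/d 5p strand were the unnamed candidate PC-5p-8760_411 (r = 0.882), zma-miR169i-5p (0.863), zma-miR390a-5p (0.79), zma-miR2118b (0.743) and bdi-MIR169a-p5_2ss8TC17TC (0.73).

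Cleavage sites were listed for the 3p strand, and the degradome table held 0 alignments of a 5p strand. The maize 3p strand was aligned to 27 transcripts, and a cleavage site was listed on 19 of them, or 70.4%, against 12.4% of the 41969 alignments of all small RNAs in the table. All 19 sites of the maize strand lay opposite base 10 of the miRNA, as did 89.1% of all sites in the table. The rest in the table lay opposite base 9 or 11. The Medicago-named strand was listed with the same 19 transcripts, sites and reads, so it adds no further site. These 19 transcripts covered 8 reference genes, some with several transcripts, besides assembled transcripts and miR319 precursors. The same reads therefore recur among them. The deposited category grades a site by its reads on the transcript, from 0, usually the highest peak of the transcript, to 4, usually a lone read. Of the 19 sites of the maize strand, 10 were of category 0, 1 of category 1, 6 of category 2 and 2 of category 4. The share of category 0 was 52.6% of its sites, against 21.4% of all 5198 sites in the table. There was 1 degradome library, so none of this has a replicate.

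The 10 category 0 sites belonged to 4 reference genes and to assembled transcripts that carried the same reads. Zm00001d039371 had 99 reads at its site (base 1466 of its first transcript, alignment penalty 3, p = 0.0238, all from the authors' deposited table). In the authors' deposited table Zm00001d018806 had 22 reads (base 1085, penalty 1.5, p = 0.0177) and Zm00001d007868 had 18 reads (base 1097, penalty 2, p = 0.0130). Zm00001d013119 had 9 reads there (base 947, penalty 1.5, p = 0.0177 in the authors' deposited table). All 4 are annotated in the table under the class of transcription, with no gene name, and none could be matched to a TCP gene by the names given. For Zm00001d039371 the normalized value was 24.75, below its 99 reads, which were listed on 4 transcripts, 3 of this gene and 1 assembled.

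**Figure D5:**
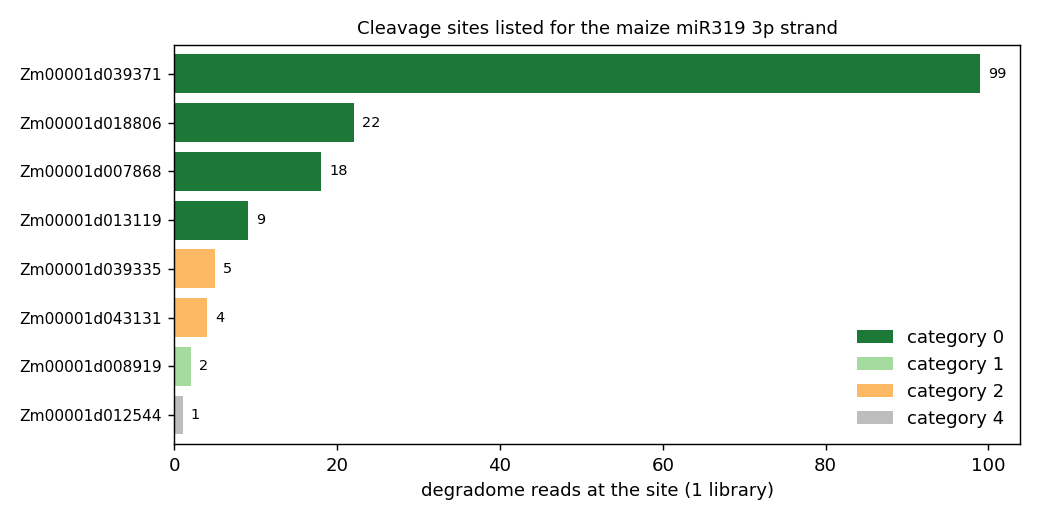
Degradome reads at the cleavage site of the maize miR319 3p strand in 8 reference genes, 1 bar per gene, coloured by the deposited category, from 1 library. The 4 genes of category 0 have 9 to 99 reads, and the others 1 to 5.

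Weaker sites were listed in 4 further reference genes. Zm00001d008919, annotated under lipid transport and metabolism, had 2 reads in category 1 (p = 0.0155 in the authors' deposited table). Zm00001d039335 had 5 reads and Zm00001d043131, annotated with DNA binding, had 4 reads in category 2, with p of 0.559 and 0.591 in the authors' deposited table. Zm00001d012544, also annotated with DNA binding, had 1 read in category 4. A category of 0 to 2 with a p of at most 0.05 was met by 11 of the 19 sites, against 270 of all 5198 sites in the table. These 11 were the 10 sites of category 0 and the 1 of category 1. They include transcripts that carried the same reads, so they are not 11 separate sites.

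The same strand had a site on 2 of its own precursors. On MIR319b the site was at base 32 and on MIR319d at base 31, within the stretch complementary to the 3p strand, with 5 reads each in category 2 (p = 0.559 in the authors' deposited table). The stretch is printed with the base at the listed site in capitals.
zma-MIR319b: agagagcgtccTtcagtccac
zma-MIR319d: agagagcgtccTtcagtccac

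The stretch was the same in both, and Zm00001d039335 was listed with the same count, penalty, p and normalized value of 1.67, so these may be the same reads. Alignments to the precursors MIR319a and MIR319c were listed without a cleavage site. On MIR319b and MIR319d the site lay opposite base 10 of the strand, inside the stretch and not at its ends. Whether these reads came from cleavage guided by the strand or from precursor processing was not tested.

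miR159 sites lay on most of the same transcripts. Of the 8 genes with a miR319 site, 7 had one for a miR159 sequence, which is 87.5% of the miR319 genes and 46.7% of the 15 genes with a miR159 site. On the 4 category 0 genes it was zma-miR159c-3p_L-1R-1 at the same base. In the authors' deposited table miR319 had penalties of 1.5 to 3 and p of 0.0130 to 0.0238 at these sites, against penalties of 3.5 to 4 and p of 0.0875 to 0.125 for this miR159 sequence. On Zm00001d043131 the authors' deposited table has the order the other way: miR319 had 4 reads at base 1314 with penalty 4, and the miR159 sequence cpa-miR159a_R+1 had 40 reads at base 1315, category 0, with penalty 3 and p = 0.0080. Since a read is credited to every small RNA that aligns there, these reads do not say which strand guided a cut.

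Of the families linked to miR319 and TCP factors, miR159 had 9 tested sequences of 11. In the late line 1 was lower than in the early line at 6 h and 2 at 53 h, where 4.57% and 4.11% of all tested sequences were called lower. The median log2 fold change of the 9 was -0.94 at 6 h and -1.27 at 53 h, against -0.36 and 0.01 over all tested sequences. The sequence lower at both times was zma-miR159c-3p_L-1R-1, with 741 ± 228 CPM at 6 h in late embryos, against 3266 ± 636 CPM in early ones (SD, n = 3 each). miR164 and miR396, whose genes are activated by TCP factors in Arabidopsis, had 3 of 6 and 4 of 8 sequences tested. edgeR called 0 of them in the 9 comparisons and the interaction, where it called from 0.0% to 10.5% of all tested sequences. Between the lines, unadjusted p under 0.05 were found for 2 of the 3 miR164 sequences at each time, and for 1 of the 4 miR396 sequences at 6 h and 2 at 53 h. DESeq2 called 0 miR164 sequences at 6 h and 1 at 53 h, and 1 miR396 sequence at each time. limma voom called 1 miR164 sequence at 6 h and 2 at 53 h, and 0 miR396 sequences at 6 h and 2 at 53 h. Over all tested sequences, an unadjusted p under 0.05 was found for 28.8% at 6 h and 40.2% at 53 h, DESeq2 called 12.8% and 22.8%, and limma voom called 46 and 75 of 219. The median log2 fold change, late over early, was -0.80 at 6 h and -0.60 at 53 h over the 3 miR164 sequences, and 2.20 at 6 h and 2.50 at 53 h over the 4 miR396 sequences. Between GA3-treated and untreated late embryos, 0 sequences of these 3 families were called by edgeR, DESeq2 or limma voom, and 0 had an unadjusted p under 0.05 in edgeR. Of all tested sequences, 0.0% were called by each tool and 5.02% had an unadjusted p under 0.05 in edgeR.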

How the data were processed

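Small RNA libraries of 18 maize embryo samples in 6 groups, and 1 degradome library in no group, were used. The authors deposited expected counts per precursor entry, with a sequence's reads divided over its entries, and a signal that equals these counts times 1 factor per library. In the degradome table the authors give counts of reads per cleavage site, 2 further columns of signal, a p-value per site, an alignment score (a penalty) and an other measure, the cleavage category. For the authors' aligner, counter and genome: not given in the sources used here. Of the lines of the tables at hand, 9 (miRNA) and 5176 (degradome) were empty and not analysed.

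Expected counts were summed over the entries of each sequence and rounded. Of 536 sequences, 10 with the values of another in every library, and listed in at least 4 libraries, were merged, which left 526. edgeR 4.0.16 (R 4.3.3) was run with TMM scaling, filterByExpr (minimum count 10), 1 model of 6 group means and two-sided quasi-likelihood F tests. Benjamini-Hochberg adjustment ran over all 219 sequences, 68 arm sums or 48 family sums, with a threshold of 0.05. TMM factors were computed separately for sequences, arm sums and family sums, so fold changes of these levels are not on the same scale. SE is the absolute log2 fold change divided by the root of F. DESeq2 1.42.0 and limma 3.58.1 (voom) were alternatives. The fit was checked on simulated data. Shares were compared by exact permutation tests over libraries. Hairpins were aligned with Biopython 1.88, and tables made with Python 3.11.15 (scipy 1.17.1, numpy 2.4.6, pandas 2.3.3), and figures drawn with matplotlib 3.10.9. Of columns with values per sample, 0 were left unused.

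Every sequence of the family is accounted for. The members, lists, comparisons and the rule for named sequences were chosen with earlier results of these data known. Nothing in the labels says how the biological replicates were separated beyond that word, so p-values measure the spread between these samples. Replicate numbers are shared between groups without a stated pairing. For the late line at 78 h and 53 h, deviations of like-numbered libraries correlated at 0.454, 0.205 and 0.304, above 0.1 in each pair. The degradome gene IDs matched no entry of the gene table at hand, so no gene names are given.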

Additional observations from a re-analysis of the deposited data

How the results depend on the processing

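Depth limits the 5p strands most: late-line libraries at 6 h held 51 to 349 counts of them. Of 1099 recomputed values, 981 kept their direction and side of the threshold (or stayed within 1.5 times for counts, 1 SD for shares). The b/d 5p strand stayed lower in the late line under every alternative run, with the call at 53 h lost with the replicate block (adjusted p = 0.087) and kept under the other alternatives run. Leaving out single libraries kept its calls, with log2 fold changes of -3.46 to -3.02 at 6 h and -2.08 to -1.73 at 53 h. Unless a value or the alternative itself shows it, the cause was not tested.

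Scaling by library totals alone gave the 3p strand -0.54 at 6 h and -0.31 at 53 h (late over early line), 0.039 at 53 h over 6 h in the late line, and, over the early line at 53 h, -0.20 for the late line at 78 h and -0.085 with GA3. The family sum became -0.43, -0.29 and -0.20 for the late line at 53 h, at 78 h and with GA3, over the early line at 53 h. The 5p sum at 78 h over the early line at 53 h passed the test at -1.48 with library totals and at -1.04 in DESeq2. Library totals and DESeq2 raised the number of members called to 2 at 6 h and, with RLE scaling, limma voom and 1 entry per sequence, to 2 at 53 h between the lines. The number called rose to 1 for the late line at 78 h over the early line at 53 h (library totals), for GA3 over early (library totals, DESeq2, limma voom, compared groups only) and for the late line at 53 h over 6 h (DESeq2).

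With the replicate block, 0 members were called between the lines at 53 h and 0 at 78 h over 6 h in the late line. The block also took the 5p sum to -1.36 (GA3 over early, adjusted p = 0.0757) and 1.53 (78 h over 6 h, 0.199), the 3p strand to -0.12 (late over early at 6 h), 0.085 (53 h over 6 h, late line) and -0.29 (78 h over 6 h), and the a/c strand to 0.0086 (53 h over 6 h) and 0.096 (interaction). The numbers paired the libraries only for 78 h over 53 h, by the correlations given, and no call changed there.

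With only the compared groups, the 3p strand was at -0.037 (late over early, 6 h), 0.040 (53 h over 6 h, late line) and -0.31 (78 h over 6 h), the family sum at -0.033 (53 h over 6 h), and at 78 h over 6 h the 5p sum was 1.48 with 0 members called. Without the 3 late-line libraries listing fewest sequences, an alternative chosen after seeing the data, the 3p strand was at -0.069 (GA3), 0.18 (53 h over 6 h), -0.21 (78 h over 53 h) and -0.034 (78 h over 6 h), the a/c strand at 0.25 (53 h over 6 h) and 0.081 (interaction), the family sum at -0.044 (53 h over 6 h), and the 5p sum at 1.69 with 0 members called (78 h over 6 h). Without replicates 3 at 6 h and 53 h the family sum was -0.048 (53 h over 6 h), the 3p strand -0.12 and the 5p sum 1.16 (78 h over 6 h). With 1 entry per sequence the family sum was -0.018 (GA3) and 0.066 (late over early, 6 h). In limma voom the a/c strand was at 0.057 (53 h over 6 h) and 0.032 (interaction). With no low-count filter the 5p sum was -1.25 (GA3 over early). With miR166 out of the denominator the miR319 share differed by 2.73 (GA3 over untreated), -6.49 (lines, 6 h), -3.80 (lines, 53 h) and -1.90 (early line) percentage points. Sites of category 0 to 2 with p at most 0.05 numbered 11 of 19, against 270 of 5198 in the whole degradome table.

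Leaving out each library in turn gave these ranges where a direction or call changed. For the 3p strand they were -0.20 to 0.31 (lines, 6 h), -0.17 to 0.30 (late line, 53 h over 6 h), -0.15 to 0.17 (78 h over 53 h) and -0.12 to 0.24 (78 h over 6 h). For the a/c strand they were -0.16 to 0.18 (early line), -0.37 to 0.43 (late line, 53 h over 6 h) and -0.52 to 0.29 (interaction). The family sum ran from -0.085 to 0.44 (lines, 53 h), -0.10 to 0.22 (late line, 53 h over 6 h) and -0.0065 to 0.61 (78 h over early 53 h). The 5p sum ran from -1.48 to -0.59 (78 h over early 53 h, where leaving out replicate 3 at 78 h gave the call), -1.58 to -1.14 (GA3 over early) and 1.16 to 2.24 (78 h over 6 h). Members called ran from 1 to 2 (lines, 53 h) and from 0 to 1 (late line, 53 h over 6 h).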
